A study of Homo sapiens with 8 samples.

Results

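The mitosis and G2/M genes are 45 genes of mitosis and its approach, with activators of such genes. Among them are CDK1 with its cyclins and activating phosphatases, the mitotic kinases, the machinery of anaphase, kinesins and kinetochore proteins. Spindle and cytokinesis proteins, chromosome proteins, and the transcription factors FOXM1 and MYBL2 complete the 45. They were taken by gene name from the deposited expression table, where all 45 were found among 31461 genes, and all 45 passed the filter that left 14635 genes for testing. The table holds 8 RNA-seq libraries of human lung cancer lines, 2 for each of 4 groups. The lines were A549, from a lung adenocarcinoma, and H1299, from a large cell carcinoma, and cells of each received either a control microRNA or miR-29a-3p by transfection. Both lines were labelled wild type, and the treated libraries were labelled as overexpressing miR-29a-3p. No dose or time after transfection is given in the sources used here. The series asks which messages miR-29a-3p may target in lung cancer cells.

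In the cell cycle, cyclin A and then cyclin B bind CDK1, and CDC25 phosphatases remove the inhibitory phosphates that WEE1 and PKMYT1 place on it. Active CDK1 drives the cell into mitosis, where PLK1 and the aurora kinases build the spindle and the checkpoint proteins hold back CDC20 and the anaphase-promoting complex until every chromosome is attached. Transcription of these genes is held down in resting cells by the DREAM complex and switched on by MYBL2, FOXM1 and the MuvB core through short promoter elements called CHR. MicroRNAs of the miR-29 family bind messages through the seed at their 5′ end and are known for repressing collagen genes.

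The sequences of the miR-29 family are shown because the seed, in capitals, sets which messages can pair with it. They are RefSeq mature sequences on GRCh38.p14.
hsa-miR-29a-3p: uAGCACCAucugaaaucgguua
hsa-miR-29b-3p: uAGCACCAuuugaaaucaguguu
hsa-miR-29c-3p: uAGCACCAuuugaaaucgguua
The 3 seeds (bases 2 to 8) are the same. A message pairs with the seed through TGGTGCT (a 7mer-m8 site), which becomes an 8mer when an A follows, or through GGTGCTA (a 7mer-A1 site) or GGTGCT alone (a 6mer).

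Such letters were rare in the 3′ UTRs of the mitotic genes. In the longest 3′ UTR annotated by GENCODE release 29, 3 of 45 members (6.67%) held a 7mer-m8 or 8mer, against 16.4% of the 11632 tested genes with an annotated 3′ UTR. Any site down to a 6mer was found in 6 of 45 (13.3%) against 34.2%. The members' 3′ UTRs were also shorter, with a median of 614 bases against 1356. The sites of 7 or more bases are shown on GRCh38 with the paired letters in capitals, because they include the member that fell furthest in the libraries labelled A549.
MYBL2 8mer, chr20:43716270-43716298, plus strand: gggcggctccTGGTGCTAacaacaaagtt
CCNA2 7mer-m8, chr4:121816790-121816818, minus strand: gctttttactTGGTGCTttttcttgtttt
TPX2 7mer-m8, chr20:31801712-31801740, plus strand: ctttccttacTGGTGCTgataacaacagg
KIF4A 7mer-A1, chrX:70420460-70420488, plus strand: ttctccagaagGGTGCTAagtcacctact
MYBL2 was the 1 member with an 8mer. BIRC5 and CDC25B held only 6mers, 2 and 1 respectively, and MYBL2 held a 6mer besides its 8mer. MYBL2, CCNA2, TPX2 and KIF4A fell in the libraries labelled A549, where 24 of the 45 members fell, most of them without a site. The calls of TPX2 and KIF4A there were lost when some single A549-labelled libraries were left out. In those labelled H1299, MYBL2, CCNA2 and KIF4A rose (log2 changes of 0.77, 0.43 and 0.33) and TPX2 did not pass (-0.10). A match is a description of the letters and does not show binding.

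Genes that mark A549 and the gene lost from it did not follow the labels, so directions that depend on the line hold for the label only. CDKN2A, a cell cycle inhibitor that A549 cells have lost, stood at 23.8 to 28.4 FPKM (fragments per kilobase of transcript, scaled to the mapped fragments of the library) in the 4 libraries labelled A549 and at 0.051 to 0.112 in those labelled H1299. Of 8 genes that mark A549, 6 were higher in the H1299-labelled controls (limma, adjusted p under 0.05), GPX2 did not pass (adjusted p = 0.80) and SFTPB was at or near 0 in every library. Their summed level was 155 to 168 FPKM in the A549-labelled libraries and 1145 to 2589 in the others, where ALDH1A1 held the largest part (809 and 785 FPKM in the controls). The sum reached 2505 or more in the treated H1299-labelled libraries, and its part in the results was not tested. Genes that mark fibroblasts, leukocytes and endothelial cells (11 in all) reached at most 1.67 FPKM in any library. The libraries held an estimated 12221310 to 15614821 fragments. Replicates differed by a median of 0.079 to 0.088 in log2(FPKM + 1), the scale of every log2 change given here.

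The most common feature of the mitotic genes was their low level in the libraries labelled H1299. Summed over the 45 genes, the level was 1422 and 1433 FPKM in the A549-labelled controls and 311 and 313 in the H1299-labelled controls. After miR-29a-3p it was 1113 and 1114 FPKM in the libraries labelled A549 and 291 and 293 in those labelled H1299. The lower sum in the latter does not hold for most members, since CDC25B alone went from 78.2 and 67.0 to 28.3 and 25.1 FPKM. The median member rose there, from 3.96 and 4.32 to 4.55 and 4.53 FPKM. The sums thus fell into separate ranges for the 4 groups, with the lines much further apart than the treatments. In these bulk libraries, fewer dividing cells and less RNA per cell cannot be told apart.

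Of the 45 genes, 44 were lower in the H1299-labelled controls than in the A549-labelled ones and 1 was higher (limma, adjusted p under 0.05 over all genes tested). Over all genes tested, 74.8% passed, 45.0% lower and 29.8% higher. Both H1299-labelled controls lay below both A549-labelled ones in 44 members, against 51.8% of all genes. The median log2 difference of the members was -2.19, against -0.17 for all genes, and the latter moved to -0.01 when libraries were rescaled. That rescaling left 43 members lower and 1 higher. The median member was 5.41 times higher in the A549-labelled controls and 3.70 times higher in the A549-labelled treated libraries. The gap was smaller after miR-29a-3p in 38 of 45. The share of all genes with a smaller gap was not computed, so that count has no background.

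The largest gap was that of NDC80, which builds the microtubule-binding part of the kinetochore. It stood at 36.8 and 38.1 FPKM in the A549-labelled controls and at 1.15 and 1.27 in the H1299-labelled ones. That is a level 30.9 times higher in the former (log2 difference of -4.12 ± 0.061, SE, limma adjusted p = 5.4e-08). SPC25, a partner in the same complex, was 24.2 times higher, KIF20A 20.9 times, CCNA2 12.3 times and MYBL2 11.7 times. ECT2, which activates RhoA for cytokinesis, had nearer levels, at 20.6 and 21.0 FPKM against 16.4 and 17.3 (log2 difference of -0.28, adjusted p = 0.0020), and its call was lost with rescaled libraries (adjusted p = 0.18). That of MKI67 was lost without either H1299-labelled control and in a fit of the controls alone. CDC25B, the phosphatase that starts CDK1 activation, was the exception, at 26.9 and 25.6 FPKM in the A549-labelled controls and 78.2 and 67.0 in the H1299-labelled ones (log2 difference of 1.43 ± 0.089, SE, limma adjusted p = 1.2e-05).

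**Figure D1:**
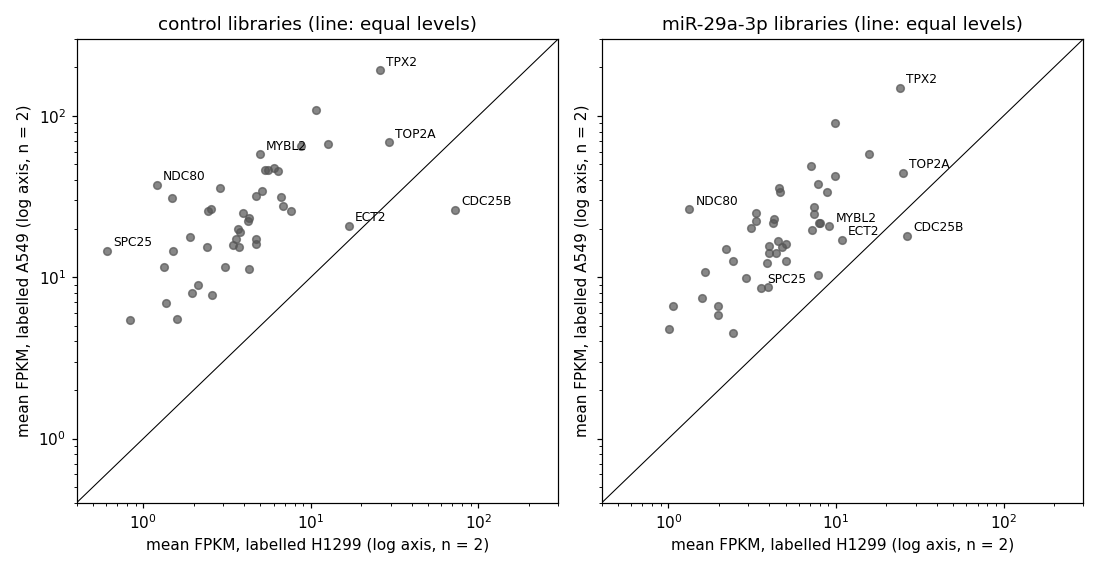
Mean level of each of the 45 genes in the libraries labelled A549 (vertical, FPKM, log axis) against those labelled H1299 (horizontal, FPKM, log axis), for controls (left) and after miR-29a-3p (right), with 2 libraries behind each mean. All genes but CDC25B lie above the line of equal levels in both panels, and MYBL2 and SPC25 move towards it on the right.

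In the libraries labelled A549, mitotic genes were moderately lower after miR-29a-3p. Of the 45, 24 fell and 0 rose (limma, adjusted p under 0.05), a share of 53.3% against a background of 8.66% lower and 7.30% higher over all genes tested. The median log2 change was -0.27, against 0.00 for all genes, and 43 of the 45 changes were negative. The median change in FPKM was -18.7%. In 38 members both treated libraries lay below both controls, in 1 (BUB1) above them and in 6 they overlapped, where the background of non-overlapping genes was 29.2% lower and 29.8% higher. The count of 24 dropped most when a single A549-labelled library was omitted, whichever it was. Omitting a single H1299-labelled library lowered it less or not at all. A separate fit of the A549-labelled libraries gave 17 lower members, so the count was not independent of the H1299-labelled libraries. The calls of CCNB2, CCNA2, KIF20A, NDC80, TOP2A, NCAPH and MYBL2 held under all 15 alternatives tried.

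In the libraries labelled H1299, the same genes split. Of the 45, 17 rose, 8 fell and 20 did not pass, where the background over all genes was 25.1% higher and 24.8% lower. The share that rose was 37.8% and the share that fell 17.8%. The median log2 change was 0.16, against 0.00 for all genes, and the median change in FPKM was 17.5%. In 23 members the treated libraries lay above both controls, in 10 below them and in 12 they overlapped, with backgrounds of 38.5% higher and 37.4% lower. Leaving out single libraries gave 14 to 18 higher and 5 to 8 lower, the 5 without treated library 1, and 18 of the 25 calls held under every alternative tried.

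The members are listed by their pair of calls. The share of all genes with each pair was not computed, so the counts have no background. Lower in both lines were CCNB1, CCNB2, CDC25B, PLK1, ECT2 and TOP2A, 6 in all. Lower in the A549-labelled and higher in the H1299-labelled libraries were CCNA2, KIF20A, KIF23, KIF4A, SPC25, ANLN, NCAPH and MYBL2, 8 in all. Another 10 fell in the A549-labelled libraries and did not pass in the others: BUB1B, KIF11, KIF2C, CENPF, NDC80, TPX2, NUSAP1, PRC1, DLGAP5 and ASPM. A call in 1 line only shows no difference between lines. BUB1B, KIF2C and TPX2 did not pass the test of the difference (limma adjusted p = 0.061, 0.22 and 0.053). A further 9 rose in the H1299-labelled libraries and did not pass in the others: AURKB, MELK, PBK, UBE2C, PTTG1, ESPL1, MAD2L1, NUF2 and NCAPG. CENPA and CENPE fell in the H1299-labelled libraries and did not pass in the others, and 10 members passed in neither. Across the 45 genes the changes in the lines had a Pearson correlation of 0.03 and a Spearman correlation of 0.18. These are descriptions over genes, which share their libraries.

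The difference between the responses was tested directly. For 27 members the change was lower in the A549-labelled libraries and for 2, CDC25B and ECT2, it was higher (limma, adjusted p under 0.05), against backgrounds of 19.2% and 18.1%, or 37.3% in all. The median difference (A549 minus H1299) was -0.47 on the log2 scale, against 0.00 for all genes. All 8 genes with opposite calls were among the 27, which opposite calls under a shared standard error all but ensure. Of the 6 that fell in both lines, CCNB1, CCNB2 and PLK1 had differences of -0.12, 0.06 and 0.06 (adjusted p = 0.40, 0.62 and 0.84), with standard errors of 0.099, 0.089 and 0.21. The 1 added to FPKM shrinks log2 changes more at low levels, as in the H1299-labelled libraries. For these 3 genes the ratios of mean FPKM, treated over control, were 0.758, 0.730 and 0.565 in the A549-labelled libraries. In the H1299-labelled ones they were 0.808, 0.648 and 0.438. With 0.1 added in place of 1, the counts of 27 and 2 were the same. For 7 of the 29 genes (CDK1, AURKB, TTK, CENPF, NUF2, DLGAP5 and ASPM) the call was lost under 1 or more alternatives, without A549 control 2 or treated library 1 in each case.

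**Figure D2:**
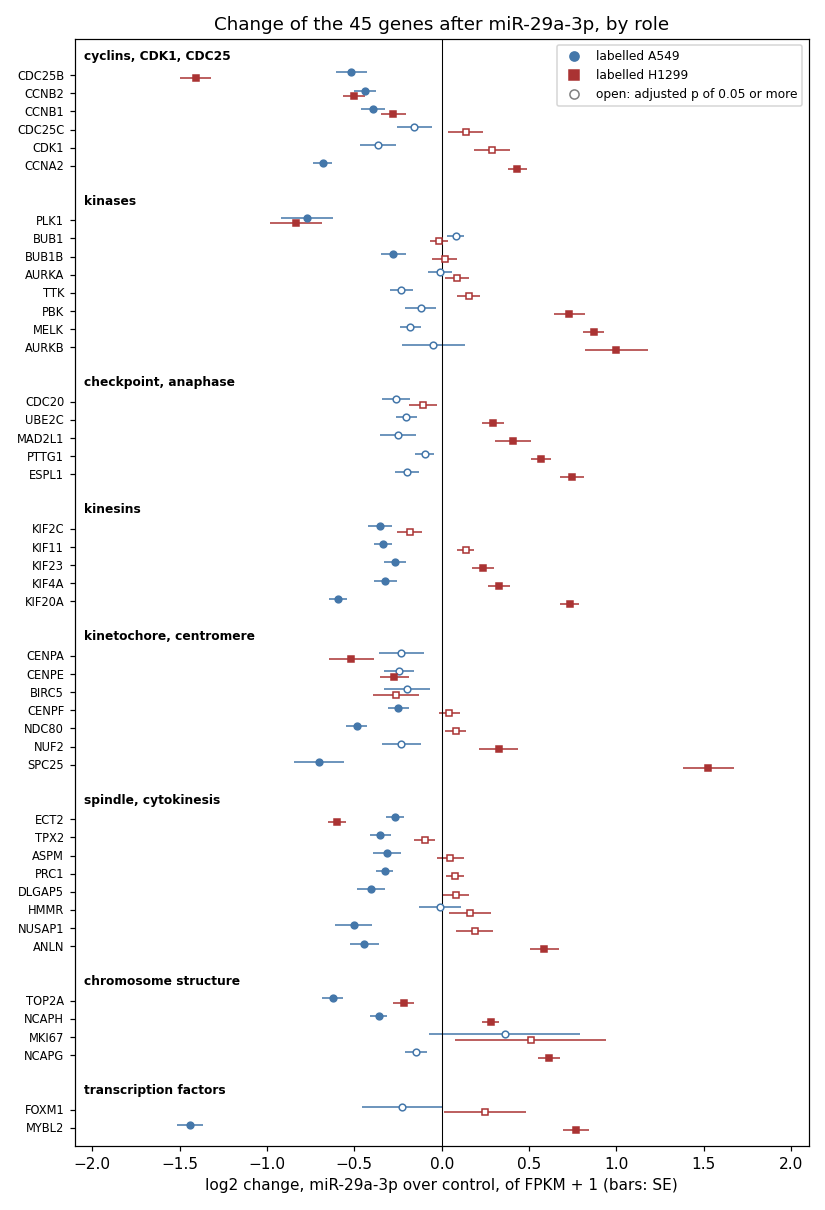
Log2 change of FPKM + 1 after miR-29a-3p (horizontal, with the standard error as a bar) for each of the 45 genes, grouped by role, in the libraries labelled A549 (circles) and H1299 (squares). Filled marks passed an adjusted p of 0.05. The circles lie at or left of zero except BUB1 and MKI67, while the squares spread from CDC25B at -1.41 to SPC25 at 1.53.

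Among the transcription factors, MYBL2, which activates late cell cycle genes as part of the MuvB complex, moved furthest. It stood at 58.4 and 57.2 FPKM in the A549-labelled controls and at 20.4 and 21.0 after miR-29a-3p. In the H1299-labelled libraries it stood at 4.5 and 5.42 FPKM in the controls and 9.06 and 9.19 after miR-29a-3p. The groups did not overlap in either line, and the treated levels of the lines were closer than the control levels. MYBL2 fell by 1.44 on the log2 scale in the A549-labelled libraries (± 0.075, SE, limma adjusted p = 0.00031) and rose by 0.77 in the H1299-labelled ones (± 0.075, SE, limma adjusted p = 0.00032). The difference was -2.21 ± 0.11 (SE, adjusted p = 8.7e-05). The gene lies on the plus strand at chr20:43667019-43716496 (GRCh38), and the GGTGCT within the 8mer printed above begins at base 194 of its 409-base 3′ UTR.

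FOXM1, the other activator of G2/M genes, did not pass in either line. It stood at 27.0 and 25.6 FPKM in the A549-labelled controls and at 23.2 and 21.5 after miR-29a-3p (log2 change of -0.23, adjusted p = 0.57). In the H1299-labelled libraries it stood at 2.56 and 2.49 FPKM in the controls and at 2.17 and 4.53 after miR-29a-3p (0.25, adjusted p = 0.42). The treated H1299-labelled libraries lie on either side of the controls, and that spread enters the test in both lines because the fit pools it. Without H1299 treated library 1 the change there was 0.65 (adjusted p = 0.0022) and the difference between the lines -0.88 (adjusted p = 0.0033).

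Among CDK1 and its partners, the B cyclins fell in both lines and cyclin A2 did not follow them. CCNB1, cyclin B1, stood at 64.0 and 65.2 FPKM in the A549-labelled controls and at 47.4 and 50.6 after miR-29a-3p, and at 8.78 and 8.71 against 6.54 and 7.58 in the H1299-labelled libraries. It fell by 0.39 (limma adjusted p = 0.015) and by 0.28 (adjusted p = 0.017) on the log2 scale. CCNB2, cyclin B2, went from 34.0 and 34.4 to 25.5 and 24.4 FPKM and from 4.81 and 5.47 to 3.29 and 3.38, falling by 0.44 (adjusted p = 0.0075) and 0.50 (adjusted p = 0.00093). CCNA2, cyclin A2, which acts from S phase to early mitosis, went from 35.4 and 35.6 to 22.2 and 21.3 FPKM in the A549-labelled libraries and from 3.01 and 2.75 to 4.14 and 4.32 in the others. It fell by 0.68 (adjusted p = 0.0011) in the former and rose by 0.43 (adjusted p = 0.00095) in the latter. None of the 3 cyclins had overlapping groups in either line. The A549-labelled call of CCNB1 was lost without A549 control 1, control 2 or treated library 1. Its H1299-labelled call was lost without H1299 control 1, control 2 or treated library 1, and in the separate fit of those libraries.

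CDK1, the kinase itself, stood at 19.2 and 20.8 FPKM in the A549-labelled controls and at 14.4 and 16.3 after miR-29a-3p. In the H1299-labelled libraries it stood at 3.41 and 3.99 FPKM in the controls and at 4.34 and 5.14 after miR-29a-3p. Its groups did not overlap, but the changes of -0.36 (adjusted p = 0.063) and 0.29 (adjusted p = 0.059) did not pass, while the difference between them did (-0.65 ± 0.15, SE, limma adjusted p = 0.015). Both changes passed when only genes averaging 5 FPKM or more were tested (adjusted p = 0.045 and 0.049) and with a replicate block (0.034 and 0.014), and that of 0.29 also without H1299 treated library 1 (0.39, adjusted p = 0.046). The call of the difference between the lines was lost without A549 control 2.

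CDC25B fell the most of all members in the H1299-labelled libraries, from 78.2 and 67.0 to 28.3 and 25.1 FPKM (-1.41 ± 0.089, SE, limma adjusted p = 6.5e-05). In the A549-labelled libraries it fell from 26.9 and 25.6 to 18.3 and 17.8 FPKM (-0.52, adjusted p = 0.013), a call lost without any 1 of those 4 libraries (highest adjusted p = 0.069). After miR-29a-3p its H1299-labelled level lay close to that of the A549-labelled controls. The gene lies at chr20:3786772-3806121 (GRCh38, plus strand). CDC25C, its relative that acts at mitotic entry, stood at 0.690 to 1.11 FPKM in the 4 H1299-labelled libraries and at 4.48 to 5.44 in the others, with changes of 0.14 and -0.16 that did not pass (adjusted p = 0.30 and 0.34).

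**Figure D3:**
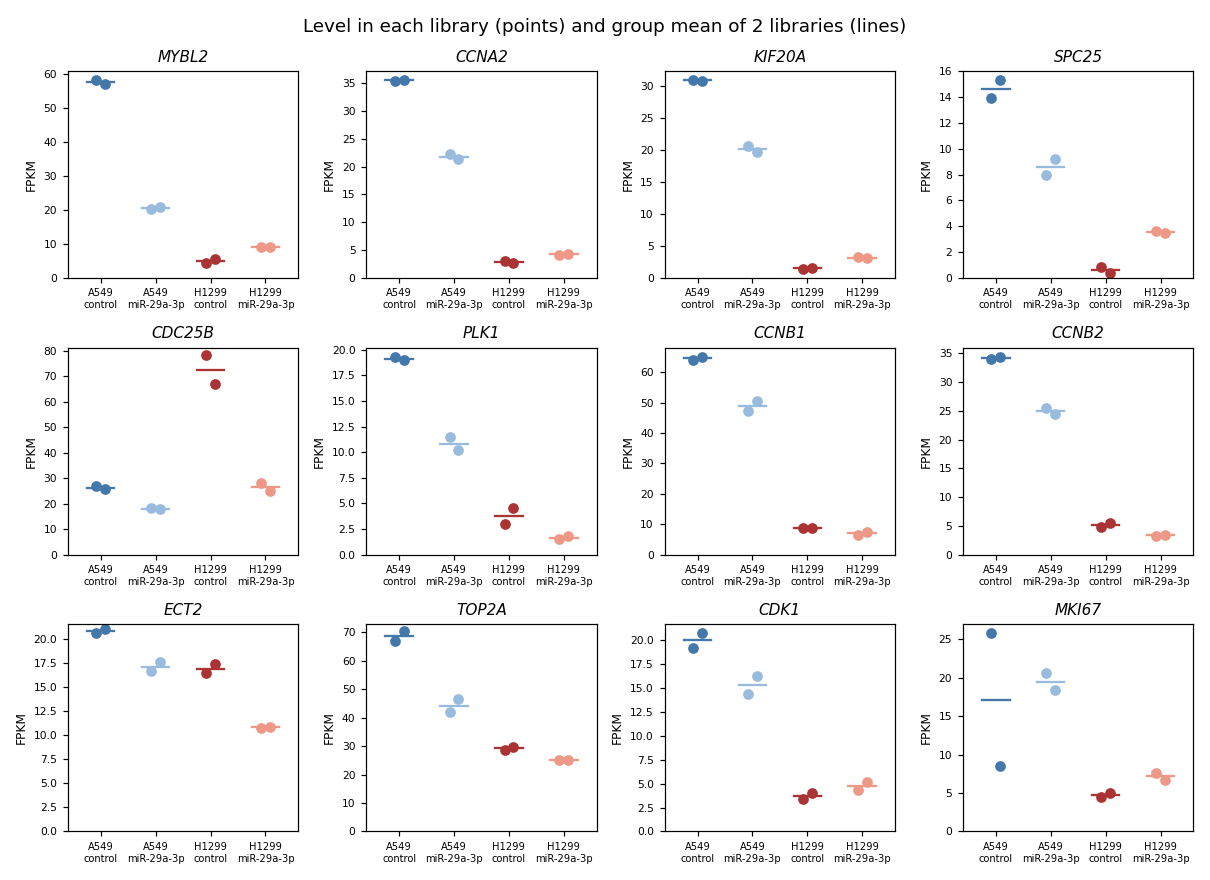
Level of 12 of the 45 genes in FPKM (vertical, from 0, each panel with its own scale) in each library (points) and as the mean of the 2 libraries (lines) of each group. MYBL2, CCNA2, KIF20A and SPC25 go down in the libraries labelled A549 and up in those labelled H1299, CDC25B, PLK1, CCNB1, CCNB2, ECT2 and TOP2A go down in both, and the A549-labelled controls of MKI67 lie far apart.

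Of the 8 mitotic kinases, 2 fell and 0 rose in the A549-labelled libraries, and 1 fell and 3 rose in the H1299-labelled ones. Of all genes tested, 8.66% fell and 7.30% rose in the former and 24.8% and 25.1% in the latter, which is the background for the counts of every role, and in the latter the kinases' shares of 12.5% and 37.5% rest on 8 genes. PLK1, which matures centrosomes and triggers mitotic entry, went from 19.3 and 19.0 to 11.5 and 10.2 FPKM in the former (-0.77, adjusted p = 0.019). In the latter it went from 3.03 and 4.54 to 1.52 and 1.79 FPKM (-0.83, adjusted p = 0.0041). Its A549-labelled call was lost without any 1 of the 4 A549-labelled libraries and with no filter on low values. BUB1B, a checkpoint kinase, went from 14.8 and 16.0 to 12.4 and 12.7 FPKM in the A549-labelled libraries (-0.28, adjusted p = 0.046), a call lost under 11 of 15 alternatives.

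The kinases that rose in the H1299-labelled libraries were AURKB, MELK and PBK. AURKB, the kinase of the chromosomal passenger complex, stood at 1.83 and 1.18 FPKM in the controls and at 3.5 and 4.49 after miR-29a-3p, a change of 1.0 ± 0.18 (SE, limma adjusted p = 0.0043). In the A549-labelled libraries it stood at 14.6 and 14.5 FPKM and, after miR-29a-3p, at 16.3 and 12.1, on either side of the controls, and the difference between the lines (-1.05, adjusted p = 0.020) was lost under 7 of 14 alternatives. MELK, a kinase of proliferating cells, rose from 3.96 and 3.97 to 8.47 and 7.68 FPKM (0.87, adjusted p = 8.4e-05) and stood at 24.8 and 24.9 against 21.2 and 22.5 in the A549-labelled libraries (-0.18, adjusted p = 0.090). PBK rose from 4.02 and 4.56 to 7.97 and 7.55 FPKM in the H1299-labelled libraries (0.73, adjusted p = 0.00081). AURKA, BUB1 and TTK passed in neither line. AURKA, the spindle pole kinase, stood at 26.2 to 28.7 FPKM in the 4 A549-labelled libraries and 6.56 to 7.68 in the others, and BUB1 at 30.9 to 34.2 and 4.57 to 4.77. TTK, which starts checkpoint signalling, had changes of -0.23 (adjusted p = 0.060) and 0.16 (adjusted p = 0.091), and their difference passed (-0.39, adjusted p = 0.018), though not without A549 control 2 or treated library 1, or without H1299 control 2 or treated library 1 (highest adjusted p = 0.060).

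The 5 genes of the checkpoint and of anaphase did not pass in the A549-labelled libraries, where their log2 changes ran from -0.26 to -0.10. In the H1299-labelled libraries 4 rose. ESPL1, the separase that cleaves cohesin, went from 1.36 and 1.28 to 3.09 and 2.70 FPKM (0.75 ± 0.069, SE, limma adjusted p = 0.00026). PTTG1, the securin that holds separase back, went from 6.57 and 6.19 to 9.85 and 10.01 FPKM (0.57, adjusted p = 0.00034). MAD2L1, a checkpoint protein, and UBE2C, the ubiquitin-conjugating enzyme of anaphase, rose by 0.41 and 0.29 (adjusted p = 0.016 and 0.0088), and the MAD2L1 call was lost without H1299 control 1, control 2 or treated library 2 (highest adjusted p = 0.082). CDC20, the activator of the anaphase-promoting complex, stood at 9.86 and 11.7 FPKM in the H1299-labelled controls and at 10.03 and 9.78 after miR-29a-3p (adjusted p = 0.31). For the 4 that rose, the difference between the lines passed as well.

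All 5 kinesins fell in the A549-labelled libraries, and 3 rose in the H1299-labelled ones. KIF20A, which acts in cytokinesis, went from 30.9 and 30.8 to 20.5 and 19.7 FPKM in the former (-0.59 ± 0.053, SE, limma adjusted p = 0.0015). In the latter it went from 1.42 and 1.53 to 3.21 and 3.02 FPKM (0.73, adjusted p = 0.00011). KIF4A, a chromosome-bound motor, and KIF23, of the central spindle, fell in the A549-labelled libraries and rose in the others. KIF4A went from 47.3 and 48.4 to 38.8 and 37.3 FPKM (-0.32) and from 5.66 and 6.46 to 7.75 and 7.96 (0.33). KIF23 went from 17.7 and 16.8 to 13.8 and 14.5 FPKM (-0.27) and from 3.45 and 3.71 to 4.55 and 4.23 (0.24). KIF11, the motor that separates spindle poles, and KIF2C, a microtubule depolymerase, fell by 0.34 and 0.35 in the A549-labelled libraries. In the H1299-labelled ones their changes were 0.14 (adjusted p = 0.062) and -0.18 (adjusted p = 0.068). The A549-labelled calls of KIF23, KIF4A and KIF2C were lost without any 1 of the 4 A549-labelled libraries, and that of KIF11 without control 2. That of KIF23 was also lost with no filter, with a replicate block and in the separate fit. The H1299-labelled call of KIF23 was lost without H1299 control 1 or treated library 1, with a replicate block and in the separate fit.

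Within the kinetochore, subunits of a single complex differed. NDC80, NUF2 and SPC25 are parts of the NDC80 complex, which ties kinetochores to microtubules. SPC25 stood at 0.839 and 0.371 FPKM in the H1299-labelled controls and at 3.67 and 3.49 after miR-29a-3p, the largest rise of any member (1.53 ± 0.14, SE, limma adjusted p = 0.00028). In the A549-labelled libraries it went from 13.9 and 15.3 to 7.96 and 9.24 FPKM (-0.70, adjusted p = 0.024). That call was lost without any 1 of those 4 libraries, with a pseudocount of 0.1 and with no filter on low values. NDC80 stood at 1.15 and 1.27 against 1.24 and 1.43 FPKM in the H1299-labelled libraries (0.08, adjusted p = 0.33) and fell from 36.8 and 38.1 to 26.7 and 26.1 in the A549-labelled ones (-0.49, adjusted p = 0.0046). NUF2 rose by 0.33 in the H1299-labelled libraries (adjusted p = 0.048), a call lost under 8 of 14 alternatives, and had a change of -0.23 (adjusted p = 0.21) in the A549-labelled ones.

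CENPA, the histone variant that marks centromeres, fell in the H1299-labelled libraries. It went from 2.14 and 1.78 to 1.14 and 0.990 FPKM (-0.52 ± 0.13, SE, limma adjusted p = 0.016). In the A549-labelled libraries it stood at 7.16 and 8.76 FPKM and then 7.36 and 5.91, which overlap. CENPE, a kinetochore motor, fell by 0.27 in the H1299-labelled libraries (adjusted p = 0.037). The CENPA call was lost without H1299 control 1 or treated library 2. The CENPE call was lost without any 1 of the 4 H1299-labelled libraries and with no filter on low values. CENPF, a kinetochore protein, went from 25.5 and 26.1 to 21.1 and 22.1 FPKM in the A549-labelled libraries (-0.25, adjusted p = 0.043), a call lost under 11 of 15 alternatives, and stood at 7.19 to 8.09 FPKM in the others. BIRC5, survivin, passed in neither line (changes of -0.20 and -0.26).

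Of the 8 spindle and cytokinesis genes, 7 fell in the A549-labelled libraries. TPX2, a spindle assembly factor and the most abundant member there, went from 187 and 196 to 151 and 149 FPKM (-0.35, adjusted p = 0.012). In the H1299-labelled libraries it stood at 24.4 and 27.2 FPKM and then 24.0 and 23.9 (adjusted p = 0.21). NUSAP1, DLGAP5, PRC1 and ASPM, which bind or organise spindle microtubules, fell by 0.50, 0.40, 0.33 and 0.31 in the A549-labelled libraries and had changes of 0.05 to 0.19 that did not pass in the others. ASPM went from 15.03 and 15.8 to 11.3 and 13.2 FPKM in the former. ANLN, a scaffold of the contractile ring, fell by 0.44 (adjusted p = 0.017) and rose by 0.59 (adjusted p = 0.0014). ECT2 fell in both lines, from 20.6 and 21.0 to 16.6 and 17.6 FPKM (-0.27, adjusted p = 0.018) and from 16.4 and 17.3 to 10.7 and 10.9 (-0.60 ± 0.050, SE, limma adjusted p = 0.00018). HMMR, a spindle-binding protein, passed in neither (changes of -0.01 and 0.16). Without control 2 the A549-labelled calls of all 7 were lost, where the adjusted p stood at 0.054 to 0.17 at its highest over all alternatives.

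Among the chromosome proteins, TOP2A, the topoisomerase that untangles sister DNA, fell in both lines. It went from 66.9 and 70.5 to 42.0 and 46.4 FPKM in the A549-labelled libraries (-0.63, adjusted p = 0.0018) and from 28.8 and 29.8 to 24.9 and 25.1 in the others (-0.22, adjusted p = 0.021). The H1299-labelled call was lost without any 1 of those 4 libraries (highest adjusted p = 0.093). The condensin subunits NCAPG and NCAPH rose in the H1299-labelled libraries by 0.61 and 0.28 (adjusted p = 0.00037 and 0.0034), and NCAPH fell by 0.36 in the A549-labelled ones (adjusted p = 0.0055). NCAPG had a change of -0.15 there (adjusted p = 0.16).

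MKI67, which codes for the proliferation marker Ki-67, could not be placed because its A549-labelled controls differed widely. They stood at 25.9 and 8.47 FPKM, against 20.6 and 18.4 after miR-29a-3p, 4.5 and 4.96 in the other controls and 7.66 and 6.66 in the other treated libraries. The log2 change in the A549-labelled libraries was 0.36 ± 0.43 (SE, limma adjusted p = 0.63). It was 1.11 (adjusted p = 0.011) without control 1 and -0.39 (adjusted p = 0.11) without control 2. The change of 0.51 in the H1299-labelled libraries did not pass with all libraries (adjusted p = 0.37) and passed without either A549-labelled control (adjusted p = 0.0083 and 0.0081), since 1 spread is estimated over all groups.

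Other genes of the same pathway are given as lists beside the backgrounds over all genes. Of 50 further mitotic genes, 20 fell and 0 rose in the A549-labelled libraries (median log2 change of -0.22), and 27 rose and 4 fell in the H1299-labelled ones (median 0.29). Their shares were 40% lower in the former, against 8.66% of all genes, and 54% higher and 8% lower in the latter, against 25.1% and 24.8%. OIP5, which helps load CENPA, fell the most in the A549-labelled libraries, from 22.2 and 26.0 to 10.4 and 9.77 FPKM (-1.18, adjusted p = 0.0034), and fell in the others from 3.95 and 4.17 to 1.68 and 1.06 (-1.11, adjusted p = 0.00079). CCNF, cyclin F, fell from 11.04 and 10.9 to 5.49 and 5.87 FPKM in the A549-labelled libraries and rose by 0.33 in the others. HJURP, the chaperone of CENPA, rose from 3.67 and 3.89 to 16.2 and 16.0 FPKM in the H1299-labelled libraries (1.84, adjusted p = 1.6e-05), while CENPA itself fell there. CENPU rose from 0.691 and 0.823 to 3.57 and 3.62 FPKM in those libraries. UBE2S, which extends ubiquitin chains for the anaphase-promoting complex, fell there from 45.1 and 42.6 to 11.4 and 14.1 FPKM (-1.71, adjusted p = 3.5e-05) and did not pass in the A549-labelled ones (0.10, adjusted p = 0.48).

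Of 18 inhibitors of mitotic entry and subunits of the DREAM and MuvB complexes, 1 rose and 3 fell in the A549-labelled libraries and 9 rose and 4 fell in the H1299-labelled ones. The shares were 5.56% higher and 16.7% lower in the former (7.30% and 8.66% of all genes) and 50% higher and 22.2% lower in the latter (25.1% and 24.8%). The inhibitor CDKN1A fell from 27.8 and 28.5 to 16.9 and 16.3 FPKM in the former and rose from 92.0 and 93.2 to 114 and 111 in the latter. SFN, a 14-3-3 protein that holds CDK1 complexes in the cytoplasm, rose from 27.8 and 27.2 to 87.2 and 93.1 FPKM in the H1299-labelled libraries (1.68, adjusted p = 9.8e-06), and TFDP1, a partner of E2F factors, from 6.27 and 6.49 to 13.8 and 13.9. E2F5, a repressor of the DREAM complex, fell there by 0.48, and FZR1, an activator of the anaphase-promoting complex, by 0.37. LIN37, a MuvB subunit, rose by 0.33 in the A549-labelled libraries, and TFDP2 fell by 0.31.

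The genes of DNA replication, which act earlier in the cycle, mostly rose in the H1299-labelled libraries. Of 40, 38 rose (95%, against 25.1% of all genes) and 0 fell there, with a median log2 change of 0.99, beside 17 and 8 of 45 and a median of 0.16 for the mitotic genes. The difference between the lists was not tested. PCNA, the replication clamp, rose from 76.2 and 86.5 to 334 and 345 FPKM and RRM2, which makes deoxynucleotides, from 0.671 and 0.806 to 9.94 and 9.35. In the A549-labelled libraries 12 of the 40 fell (30%, against 8.66%) and 0 rose (median -0.17), with GINS2 falling by 0.72 and TK1 by 0.50. In the controls, 40 of 40 were lower in the H1299-labelled libraries, beside 44 of 45 mitotic genes, though PCNA, at -0.20, stood at 0.017 (adjusted p = 0.83) with rescaled libraries.

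Of the 9 tested G1 genes, 1 rose and 4 fell in the A549-labelled libraries and 4 rose and 2 fell in the others. The background was 7.30% higher and 8.66% lower in the former and 25.1% and 24.8% in the latter, where the 2 that fell are 22.2%. CDK6 fell in both lines, from 26.2 and 27.8 to 9.17 and 10.2 FPKM and from 14.4 and 15.1 to 3.58 and 2.89. CDK4 fell by 1.0 and CCND1 and CCND3 rose by 1.5 and 1.35 in the H1299-labelled libraries. CCND1 rose by 0.32 and the inhibitor CDKN2C fell by 0.55 in the A549-labelled ones.

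**Figure D4:**
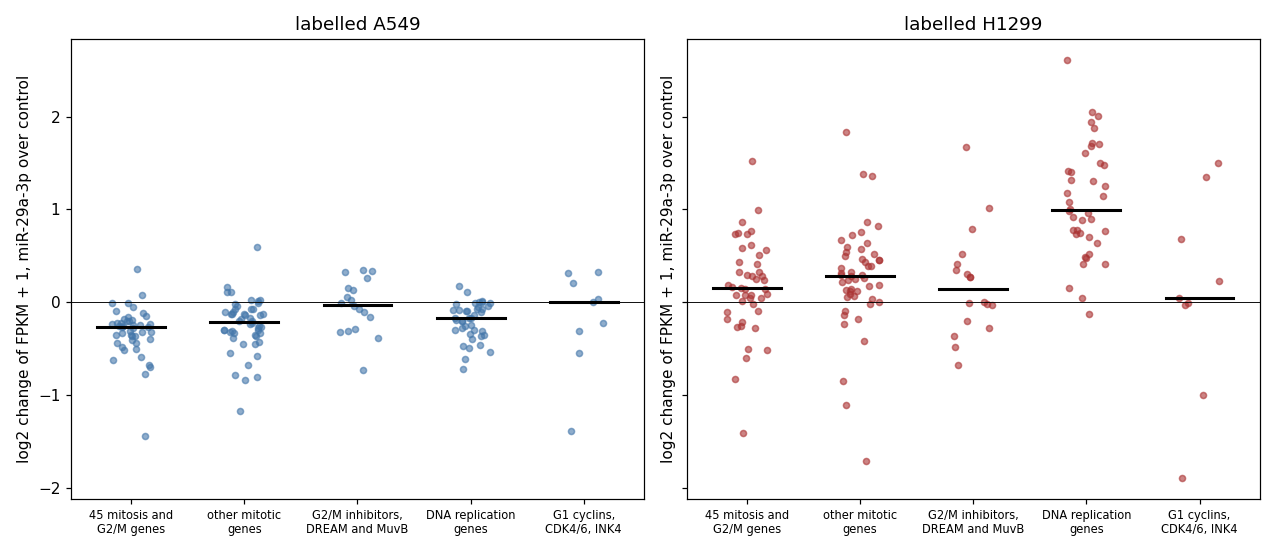
Log2 change of FPKM + 1 after miR-29a-3p (vertical) for the 45 genes and 4 other lists of cell cycle genes, in the libraries labelled A549 (left) and H1299 (right), with each point a gene and each bar the median of its list. On the right the replication genes have a median of 0.99 and the 45 genes one of 0.16, with points on both sides of zero.

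The promoters of the mitotic genes shared short elements that the choice of genes did not use. RefSeq promoters on GRCh38.p14, from 250 bases before to 50 after the start of transcription, were found for 38 of the 45. The CHR element, TTTGAA on either strand, was in 25 of 38 (65.8%), against 9.37% of the 9870 tested genes with a promoter and 15.4% of all 27305 promoters. Its variant TTTAAA was in 14 (36.8%, against 7.08% and 12.3%). The CCAAT box, CCAAT on either strand, which NF-Y binds, was in 27 (71.1%, against 37.1% and 35.7%). CHR and CCAAT stood together in 20 of 38 (52.6%, against 4.17% and 6.08%). The motifs can overlap in part, and each was counted on its own.

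The elements were found in promoters of members with either direction in the H1299-labelled libraries. Of the 8 promoters of members that fell there, 7 held TTTGAA or TTTAAA and 6 held CCAAT. Of the 15 promoters of members that rose there, 11 and 10 did. The promoters of PLK1 and CCNB2, which fell in both lines, and of KIF20A and SPC25, which fell in the A549-labelled and rose in the H1299-labelled libraries, are shown to compare them, with the elements in capitals. ATTGG is CCAAT on the other strand.
PLK1, chr16:23678639-23678938, plus strand: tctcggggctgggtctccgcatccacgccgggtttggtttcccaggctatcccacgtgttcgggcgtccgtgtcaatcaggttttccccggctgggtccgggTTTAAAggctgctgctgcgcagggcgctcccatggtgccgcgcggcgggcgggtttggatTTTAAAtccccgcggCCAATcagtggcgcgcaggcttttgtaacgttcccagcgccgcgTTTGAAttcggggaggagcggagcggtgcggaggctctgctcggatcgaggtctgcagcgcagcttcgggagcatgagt
CCNB2, chr15:59104896-59105195, plus strand: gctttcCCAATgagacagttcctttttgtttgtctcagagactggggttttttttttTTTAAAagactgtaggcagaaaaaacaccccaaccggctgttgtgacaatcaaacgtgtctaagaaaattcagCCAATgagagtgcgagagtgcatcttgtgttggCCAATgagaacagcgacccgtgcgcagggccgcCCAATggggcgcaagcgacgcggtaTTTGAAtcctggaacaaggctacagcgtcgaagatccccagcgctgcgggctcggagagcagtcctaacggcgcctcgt
KIF20A, chr5:138178862-138179161, plus strand: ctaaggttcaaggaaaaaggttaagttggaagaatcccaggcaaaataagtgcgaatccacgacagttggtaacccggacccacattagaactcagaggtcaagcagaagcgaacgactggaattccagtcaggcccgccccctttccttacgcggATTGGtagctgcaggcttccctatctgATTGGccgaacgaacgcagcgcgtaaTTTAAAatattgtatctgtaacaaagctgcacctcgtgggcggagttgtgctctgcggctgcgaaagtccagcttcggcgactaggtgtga
SPC25, chr2:168890381-168890680, minus strand: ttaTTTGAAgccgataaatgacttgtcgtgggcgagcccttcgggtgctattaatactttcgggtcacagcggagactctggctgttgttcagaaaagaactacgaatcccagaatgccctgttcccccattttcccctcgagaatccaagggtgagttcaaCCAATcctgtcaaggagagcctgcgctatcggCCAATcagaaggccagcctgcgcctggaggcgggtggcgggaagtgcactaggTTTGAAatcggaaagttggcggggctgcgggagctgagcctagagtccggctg
Counted from the start of transcription, PLK1 and CCNB2 each hold TTTGAA at -29, with the nearest CCAAT at -73 and -54. KIF20A holds TTTAAA at -41, with CCAAT on the other strand at -67 and -94. SPC25 holds TTTGAA at -3, with CCAAT at -56 and -88. Among these 4 promoters the distance from the element nearest the start to the nearest CCAAT was larger in PLK1 and SPC25 than in CCNB2 and KIF20A. It thus differed within the pair that fell in both lines. It was nearly the same for CCNB2 and KIF20A, which went opposite ways in the H1299-labelled libraries. No CHR, variant or CCAAT letters were found in this window for MYBL2, MELK, CDC25B or CDC25C. AURKA, TTK, PBK, UBE2C, BIRC5, TPX2 and FOXM1 were not matched.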

How the data were processed

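The labels' protocols name TRIzol for extraction and a VAHTS kit for library preparation. Levels were deposited by the authors as FPKM per gene, per the file headers, in 1 table with a block of columns for each line. The blocks held 27756 and 28609 genes. StringTie and GRCh38 are named in the submitters' processing notes. Of versions, aligner and annotation release, nothing was given in the sources used. Genes found in only 1 block were set to 0 in the other line. Raw counts were not used, and the fragments behind each library could only be estimated, since 38.2% to 42.1% of values came out whole within 0.02.

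The filter kept genes that reached 1 FPKM in 2 or more libraries (14635 of 31461), and log2(FPKM + 1) was fitted over the 4 groups with limma 3.58.1 in R 4.3.3, with a mean-variance trend and Benjamini-Hochberg adjustment over all genes kept. The fit had 4 residual and 2.365 prior degrees of freedom, and was checked on simulated data. A call is an adjusted p under 0.05. The labels do not say that replicates were separate cultures, and the p-values therefore rest on a spread between libraries that may be technical. No pairing of the libraries by replicate number was seen in the values.

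The members and gene lists were chosen with earlier results of these data known. Values in every library were given for the 6 called members with the lowest and the 6 with the highest change in each line (in the A549-labelled libraries, where none rose, the highest are the smallest falls), for CDK1, CCNB1, FOXM1 and MYBL2, and for the largest change of each role. Of the other lists, the 2 lowest of the genes that fell and the 2 highest of those that rose were named for each line. The remaining members are named by role. Alternatives were a pseudocount of 0.1, no filter, a mean of at least 5 FPKM, rescaled libraries, no trend, a replicate block, separate fits and leaving out each library. Sites were searched in the longest 3′ UTR of each gene in GENCODE release 29, and promoters and mature microRNAs are from RefSeq. All columns of the table were used.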

Additional observations from a re-analysis of the deposited data

Results flagged for a closer look

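The change after miR-29a-3p differed between the lines by limma's test of the difference (adjusted p under 0.05 over all genes) for the following genes, given as the log2 change in the libraries labelled A549 minus that in the libraries labelled H1299. No explanation of these differences was tested.

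Among CDK1, its partners and the mitotic kinases, the difference was -0.65 for CDK1, -1.11 for CCNA2, 0.89 for CDC25B, -1.05 for AURKB, -0.39 for TTK, -1.05 for MELK and -0.85 for PBK. Among the checkpoint and anaphase genes it was -0.49 for UBE2C, -0.67 for PTTG1, -0.95 for ESPL1 and -0.66 for MAD2L1. Among the kinesins it was -0.47 for KIF11, -1.33 for KIF20A, -0.50 for KIF23 and -0.65 for KIF4A. Among the kinetochore genes it was -0.29 for CENPF, -0.57 for NDC80, -0.56 for NUF2 and -2.23 for SPC25. Among the spindle and cytokinesis genes it was -0.69 for NUSAP1, -0.40 for PRC1, -1.03 for ANLN, 0.33 for ECT2, -0.48 for DLGAP5 and -0.36 for ASPM. For the chromosome proteins and the transcription factor it was -0.41 for TOP2A, -0.76 for NCAPG, -0.64 for NCAPH and -2.21 for MYBL2. CDC25B and ECT2 were the members with a positive difference, and both fell in both lines, further in the libraries labelled H1299.

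Outside the 45 genes, the difference was -1.17 for CCNF, 1.82 for UBE2S, -1.64 for CENPU and -1.81 for HJURP among the other mitotic genes. It was -1.81 for GINS2, -2.51 for TK1, -2.36 for PCNA and -3.08 for RRM2 among the replication genes and 0.51 for CDK6, -0.77 for CDKN2C, -1.17 for CCND1, 1.0 for CDK4 and -1.04 for CCND3 among the G1 genes. Among the inhibitors and subunits of the DREAM and MuvB complexes it was -1.0 for CDKN1A, -0.58 for TFDP2, 0.53 for LIN37, 0.82 for E2F5, -1.33 for TFDP1 and -1.79 for SFN. These genes were named because they lay at the ends of their lists, so their differences were chosen for size.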

How the results depend on the processing

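Leaving out single libraries moved the counts of called members most. The 24 that fell in the libraries labelled A549 became 7 to 24, and the 0 that rose became 0 to 1, the 1 being MKI67 without A549 control 1. In the libraries labelled H1299, the 17 that rose became 14 to 18 and the 8 that fell 5 to 8. The difference between the lines gave 2 to 3 higher and 22 to 26 lower members, against 2 and 27, and the controls 1 to 1 higher and 43 to 44 lower. Fewer samples entered these fits. Under a pseudocount of 0.1, no filter, a mean of at least 5 FPKM (40 members tested), rescaled libraries and no trend, the A549-labelled count lay between 17 and 26, and the H1299-labelled counts between 16 and 17 higher and 7 and 8 lower. Separate fits of each line gave 17 lower members in the A549-labelled libraries, and 16 higher and 7 lower in the others.

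Replicates with the same number did not deviate together (correlations of 0.018 and -0.011 over genes). No pairing by number was thus seen, which does not show that the libraries were prepared unpaired. With a replicate block, 20 members fell in the A549-labelled libraries, 17 rose and 10 fell in the H1299-labelled ones, the difference between lines gave 2 higher and 24 lower, and the controls 1 higher and 44 lower. Over all genes, the block lowered the calls in the A549-labelled libraries from 2336 to 1261 and the separate fit to 1071. A mean of at least 5 FPKM gave 3773 calls among 6085 genes in the H1299-labelled libraries, against 7312.

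Among values that passed the test with all libraries or under the alternative, the sign turned for 2. Others turned without passing either way, such as the change of MKI67 in the A549-labelled libraries (0.36, and -0.39 without control 2). The difference of MKI67 between the lines, -0.15, was 0.60 without A549 control 1 and -0.90 without control 2. The difference of PCNA between the controls, -0.20, was 0.017 with rescaled libraries, and the cause was not tested. Of the members' calls, 7 of 24 in the A549-labelled libraries, 18 of 25 in the H1299-labelled ones, 22 of 29 between the lines and 43 of 45 in the controls held under every alternative tried. With 2 libraries a group, the smallest called changes of members were -0.25 (CENPF) in the A549-labelled and -0.22 (TOP2A) in the H1299-labelled libraries, and an FPKM table keeps no exact depth.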
